A study of Mus musculus with 2 samples.

Results

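A set of 10 genes that carry signals of GM-CSF and interleukin-4 (IL-4) from the cell surface to STAT transcription factors was followed in mouse peritoneal macrophages with and without ECM1, extracellular matrix protein 1. They were chosen by name, as the receptor chains, the kinase, the STAT factors and a STAT5 target of the axis that sets Arg1, the gene of arginase 1. Of the 10 genes, 9 had values among the 10402 genes of the expression table and 8 of them reached 1 FPKM in at least one library. The remaining gene, Cish, was not analysed here. RNA was sequenced from 1 ECM1-deficient and 1 ECM1-sufficient sample of peritoneal cells, which the labels also call KO-lps- and WT-lps-. Cells of both genotypes had been elicited for 3 days with an agent labelled ThG and were not activated further. Strain, age, the number of mice per sample and how ECM1 was removed are not given in the labels. With 1 library per genotype no difference has a replicate check and no test was possible, so each value below describes a single library.

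As background, GM-CSF binds its own alpha chain, encoded by Csf2ra, which then pairs with the common beta chain, encoded by Csf2rb and shared with the receptors of IL-3 and IL-5. Mice have a further beta chain gene, Csf2rb2, whose product serves IL-3. Beta chains hold the kinase JAK2, which phosphorylates STAT5, and STAT5 induces Cish, a feedback inhibitor of the SOCS family. The IL-4 receptor chain encoded by Il4ra pairs with the common gamma chain or with the IL-13 receptor chain and signals mainly to STAT6, which drives Arg1 in macrophages. STAT3 is the main factor downstream of IL-10 and IL-6.

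Levels are given as FPKM, fragments scaled to transcript length and library depth, so levels of different genes can be set side by side. Their sum was 187612 in the ECM1-deficient library and 137135 in the ECM1-sufficient library, and the median ratio was 1.73 over genes that both libraries held at 1 FPKM or above. Differences are of log2(FPKM + 1), ECM1-deficient minus ECM1-sufficient. Beside them stand differences on a median-gene scale, for which that ratio was divided out before 1 was added, so that 0 marks about a gene with the ratio of the typical gene. Ecm1 itself was at 1.022 FPKM in the ECM1-deficient library and 5.63 FPKM in the ECM1-sufficient library, 5.51-fold lower. All 12 macrophage markers of a fixed list had values, of which 5 were at least 2-fold higher in FPKM + 1, 1 was lower and 6 were within 2-fold. Among all genes that reached 1 FPKM in a library, 14.8% were higher and 2.17% lower. The median difference of the markers was 0.86, beside 0.61 for all genes. On the median-gene scale it was 0.10, with 6 of the 12 above 0. Tyrobp, one of those below 0 there, was at 1399 FPKM in the ECM1-deficient and 1386 FPKM in the ECM1-sufficient library. Csf1r, the receptor of the macrophage growth factor, was at 18.9 FPKM in the ECM1-deficient and 7.70 FPKM in the ECM1-sufficient library. Spi1 and Fcgr1, described among the target genes, were past 2-fold on the median-gene scale too. The lower one was Lyz2, at 5.44 FPKM in the ECM1-deficient and 2774 FPKM in the ECM1-sufficient library. The part of this marker difference in the results below was not tested.

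Of the 8 genes of the axis that reached 1 FPKM, 2 were at least 2-fold higher in FPKM + 1 in the ECM1-deficient library, Il4ra and Csf2ra, and 0 were lower. In bulk RNA, more or fewer cells of a type and more or less RNA per cell cannot be told apart. Among all 9032 genes at that level, 14.8% were higher and 2.17% lower by the same threshold. The median difference of the 8 genes was 0.75, beside 0.61 for all genes. Their differences ran from 0.22 for Jak2 to 1.22 for Il4ra, so all 8 lay above 0, as did 90.5% of all genes. On the median-gene scale 0 of them were higher and 0 lower, where 2.45% and 4.77% of all genes were, and 5 lay above and 3 below 0. The medians there were 0.10 for the 8 genes and 0.03 for all genes. The 8 genes were more abundant, with a median of 12.1 FPKM in the ECM1-deficient library, beside 4.77 FPKM for all genes. In the ECM1-sufficient library these medians were 6.01 and 2.76 FPKM. Adding 1 shrinks differences of low genes more, so the medians of 0.75 and 0.61 also depend on level. A common scaling of the libraries cannot alter the order of the plain FPKM ratios. In that order, over the 9 genes with values, Il4ra came first, then Stat5a, Csf2ra, Stat5b, Csf2rb, Stat3, Csf2rb2, Stat6 and last Jak2. The place of Stat5a is uncertain, since it was below 1 FPKM in both libraries.

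**Figure D1:**
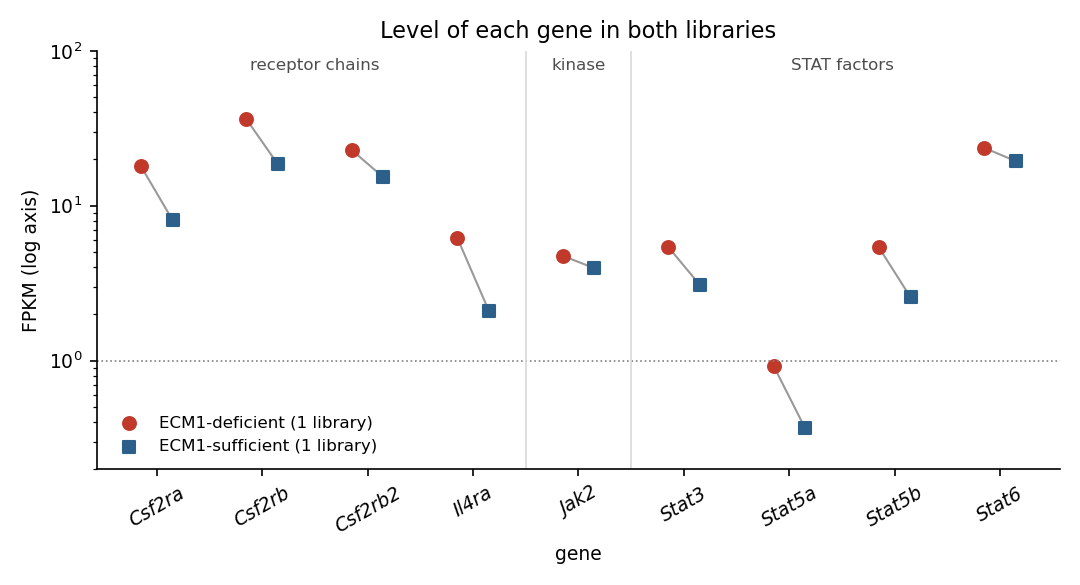
Level of the 9 genes with values, in FPKM on a log axis, with the ECM1-deficient library as red circles and the ECM1-sufficient library as blue squares, each a single library without error. The dotted line is 1 FPKM, which Stat5a did not reach, and the steepest link between the points is that of Il4ra, at 6.22 FPKM in the ECM1-deficient and 2.10 FPKM in the ECM1-sufficient library.

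The alpha chains of both receptors had the largest differences of the 8 genes. Il4ra (ENSMUSG00000030748.9, chromosome 7 from 125552120 to 125579474 on GRCm38, plus strand) was at 6.22 FPKM in the ECM1-deficient library and 2.10 FPKM in the ECM1-sufficient library, 2.97-fold higher. Its difference was 1.22, and 556 of the 9032 genes had a larger one. On the median-gene scale it was 0.61. Csf2ra (ENSMUSG00000059326.6, chromosome 19 from 61224402 to 61228418, minus strand) was at 17.98 FPKM in the ECM1-deficient and 8.07 FPKM in the ECM1-sufficient library, 2.23-fold higher. That is a difference of 1.07, with 1027 genes above it, and of 0.34 on the median-gene scale. Both genes therefore stood above the common shift of the library, Il4ra by a further 1.72-fold and Csf2ra by a further 1.29-fold.

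Beta chains were more abundant than the alpha chain in either library. Csf2rb (ENSMUSG00000071713.4, chromosome 15 from 78325990 to 78351000, plus strand) was the most abundant gene of the axis in the ECM1-deficient library, at 36.2 FPKM, against 18.5 FPKM in the ECM1-sufficient library. It was 1.96-fold higher, a difference of 0.93, and 0.18 on the median-gene scale. Csf2rb2 (ENSMUSG00000071714.5, chromosome 15 from 78282517 to 78305603, minus strand) was at 22.9 FPKM in the ECM1-deficient and 15.2 FPKM in the ECM1-sufficient library. Its 1.5-fold ratio gave a difference of 0.56, which turned to -0.19 on the median-gene scale. Csf2rb therefore stood slightly above the common shift and Csf2rb2 slightly below it.

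Csf2rb and Csf2rb2 are neighbours and close copies, so short fragments can match either. In GENCODE M21, 92.9% of the 2697 aligned coding positions of their longest transcripts were identical. Of all windows of 50 bases, 18.4% of those of the Csf2rb transcript also occurred in that of Csf2rb2. How the authors assigned such fragments is not given in the sources used here, and the split between these genes is uncertain. Their summed level was 59.0 FPKM in the ECM1-deficient library and 33.7 FPKM in the ECM1-sufficient library, 1.75-fold higher, a value that depends less on the split. The first 120 coding bases show how near the copies are, with the 4 differing bases in capitals.
Csf2rb: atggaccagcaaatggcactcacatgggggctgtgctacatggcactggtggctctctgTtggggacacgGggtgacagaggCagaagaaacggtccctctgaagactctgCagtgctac
Csf2rb2: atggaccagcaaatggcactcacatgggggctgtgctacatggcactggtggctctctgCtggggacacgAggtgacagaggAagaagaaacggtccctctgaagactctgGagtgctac

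Ratios between chains within a library need no scaling between libraries. Csf2rb exceeded Csf2ra 2.01 times in the ECM1-deficient library and 2.29 times in the ECM1-sufficient library. It exceeded Csf2rb2 1.58 times in the ECM1-deficient and 1.21 times in the ECM1-sufficient library. Set against its main transcription factor, Il4ra was at 0.263 times the level of Stat6 in the ECM1-deficient library and 0.108 times in the ECM1-sufficient library, a 2.43-fold gap. Csf2ra was at 3.78 times the level of Jak2 in the ECM1-deficient and 2.04 times in the ECM1-sufficient library. Stat6 and Jak2 had the smallest FPKM ratios of the axis, so other pairings gave smaller gaps. Csf2ra, at 2.23-fold, was about level with Stat5b, at 2.10-fold.

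Jak2 (ENSMUSG00000024789.12, chromosome 19 from 29251828 to 29313080, plus strand), the kinase bound to beta chains, was nearly level. It was at 4.76 FPKM in the ECM1-deficient library and 3.95 FPKM in the ECM1-sufficient library, 1.2-fold higher, the smallest ratio of the 9 genes. Its difference was 0.22, with 7611 genes above it, and -0.42 on the median-gene scale. Jak1, which serves the IL-4 receptor, was at 19.3 FPKM in the ECM1-deficient and 10.6 FPKM in the ECM1-sufficient library. Jak3, the partner of the common gamma chain, was at 0.818 FPKM in the ECM1-deficient and 0.261 FPKM in the ECM1-sufficient library, and Tyk2 at 3.49 FPKM in the ECM1-deficient and 2.26 FPKM in the ECM1-sufficient library. Jak2 made up 16.7% of the summed FPKM of the 4 kinases in the ECM1-deficient library and 23.2% in the ECM1-sufficient library, while Jak1 made up 68.1% in the ECM1-deficient and 62.0% in the ECM1-sufficient library.

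Among the STAT factors of the axis Stat6 was by far the most abundant, and its FPKM ratio was the nearest to 1. Stat6 (ENSMUSG00000002147.18, chromosome 10 from 127642986 to 127660957, plus strand) was at 23.6 FPKM in the ECM1-deficient library and 19.4 FPKM in the ECM1-sufficient library, 1.22-fold higher. The difference was 0.27, with 7358 genes above it, and -0.48 on the median-gene scale, the lowest of the axis. Its 3′ end overlaps that of Nab2 on the opposite strand over 40 bases. Whether the strand was used in counting is not given in the sources used here.

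STAT5 is encoded by a pair of neighbouring genes that are themselves similar. Stat5b (ENSMUSG00000020919.11, chromosome 11 from 100780731 to 100850724, minus strand) was at 5.38 FPKM in the ECM1-deficient library and 2.56 FPKM in the ECM1-sufficient library, 2.10-fold higher. On the scale with 1 added the difference was 0.84, under the 2-fold threshold, and it was 0.22 on the median-gene scale. Stat5a (ENSMUSG00000004043.14, chromosome 11 from 100859351 to 100885169, plus strand) was at 0.926 FPKM in the ECM1-deficient and 0.366 FPKM in the ECM1-sufficient library, too low for the counts above. Stat5b exceeded Stat5a 5.80 times in the ECM1-deficient library and 6.995 times in the ECM1-sufficient library. Summed, the pair was at 6.30 FPKM in the ECM1-deficient and 2.93 FPKM in the ECM1-sufficient library, 2.15-fold higher. Of their aligned coding positions 84.6% were identical, and 17.1% of the 50-base windows of Stat5a occurred in Stat5b. The second 120 coding bases, with the 19 differing bases in capitals, pass from a divergent stretch into an identical one, where short fragments cannot be assigned.
Stat5a: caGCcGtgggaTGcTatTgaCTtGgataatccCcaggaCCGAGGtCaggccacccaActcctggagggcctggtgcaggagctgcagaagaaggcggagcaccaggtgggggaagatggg
Stat5b: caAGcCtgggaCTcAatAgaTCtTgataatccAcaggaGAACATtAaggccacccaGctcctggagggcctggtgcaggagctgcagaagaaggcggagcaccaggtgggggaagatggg

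Stat3 (ENSMUSG00000004040.16, chromosome 11 from 100885098 to 100939540, minus strand), next to Stat5a, differed like the typical gene. It was at 5.43 FPKM in the ECM1-deficient library and 3.09 FPKM in the ECM1-sufficient library, 1.76-fold higher, a difference of 0.66, or 0.02 on the median-gene scale. Its annotated 3′ end overlaps that of Stat5a over 72 bases. Read along each gene, no 50-base window of the Stat5a transcript occurred in that of Stat3 or Stat6. That search did not compare opposite strands, so it does not cover the overlap of Stat5a and Stat3.

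The make-up of the 4 STAT factors of the axis differed between the libraries mainly by a smaller share of Stat6. Of their summed FPKM, Stat6 held 66.8% in the ECM1-deficient library and 76.3% in the ECM1-sufficient library. In the ECM1-deficient library Stat5a and Stat5b together held 17.8% and Stat3 15.4%. In the ECM1-sufficient library Stat5a and Stat5b together held 11.5% and Stat3 12.2%. Each share other than that of Stat6 was larger in the ECM1-deficient library.

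**Figure D2:**
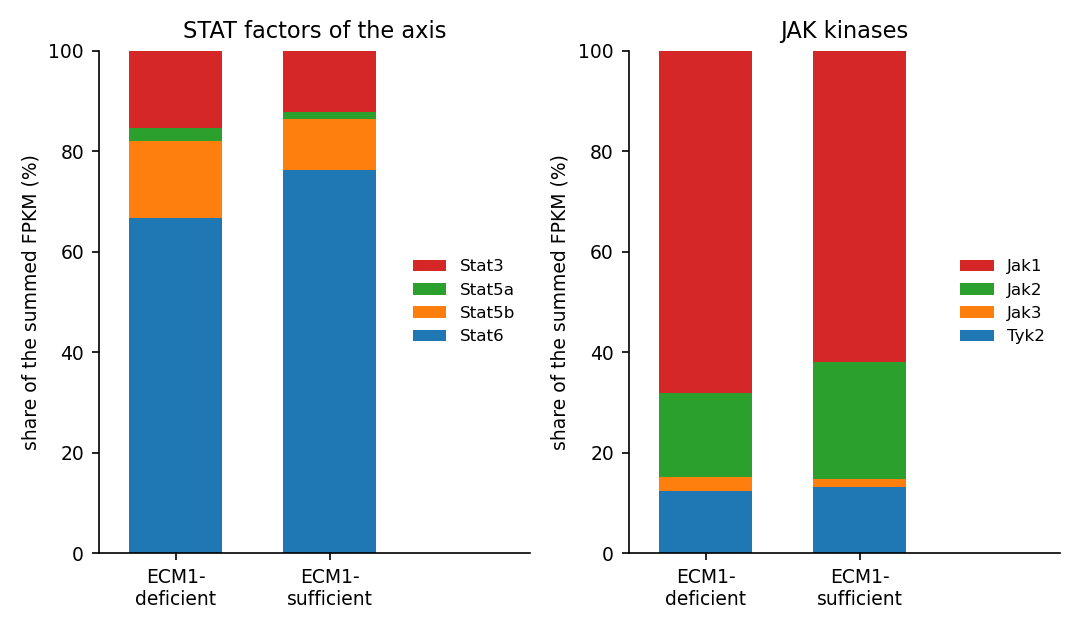
Share of each gene in the summed FPKM of the 4 STAT factors of the axis (left) and the 4 JAK kinases (right), in percent, with the single ECM1-deficient library left of the single ECM1-sufficient library. The Stat6 block holds 66.8% in the ECM1-deficient and 76.3% in the ECM1-sufficient library, and the Jak2 block 16.7% in the ECM1-deficient and 23.2% in the ECM1-sufficient library.

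**Figure D3:**
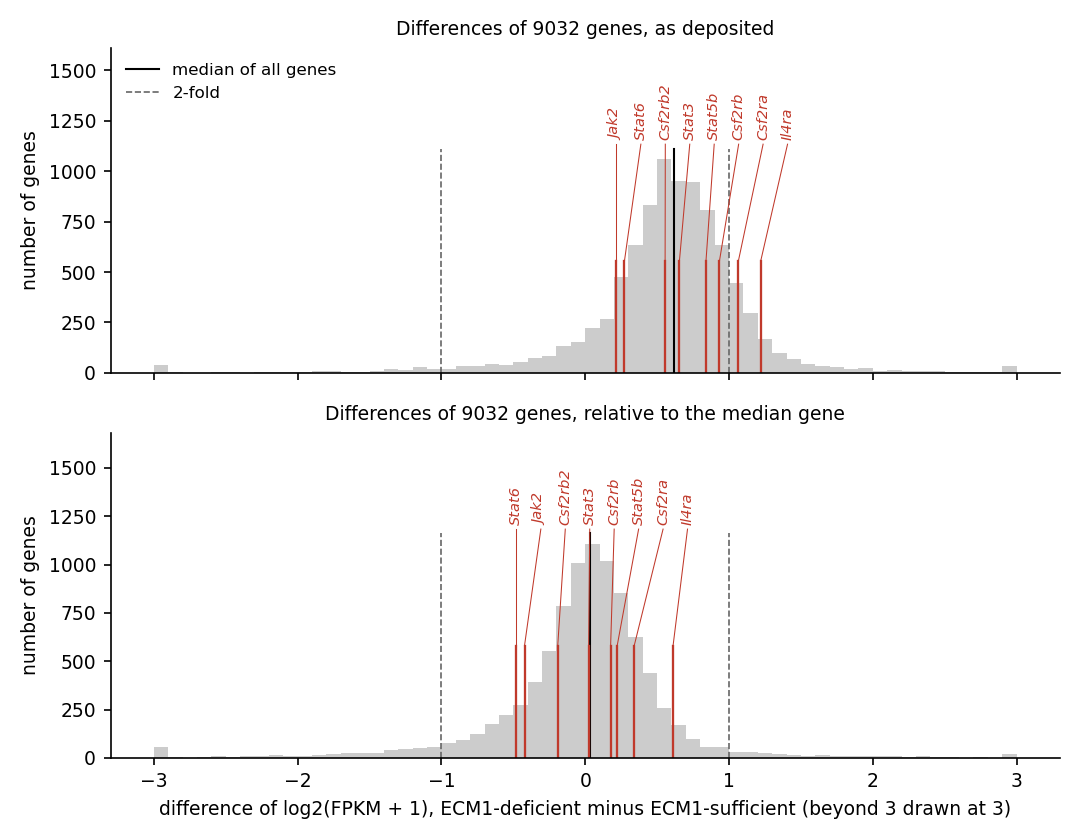
Number of genes by difference of log2(FPKM + 1), ECM1-deficient minus ECM1-sufficient, for the 9032 genes at 1 FPKM or more, as deposited (top) and on the median-gene scale (bottom). Red lines mark the 8 genes of the axis, the black line the median of all genes and dashed lines 2-fold. In the lower panel Stat6, Jak2 and Csf2rb2 lie left of 0 and Il4ra lies farthest right.

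Partner chains of these receptors were examined next, together with related chains of other receptors, such as Il6st, Il10rb and Csf1r. Of 25 partner and related chains 16 had values and 15 reached 1 FPKM, of which 7 were higher, 0 lower and 8 within 2-fold, where 14.8% of all genes were higher. All 15 lay above 0, as did 90.5% of all genes. Their median difference was 0.93, beside 0.61 for all genes. Il3ra, the IL-3 alpha chain that pairs with the beta chains, was at 10.2 FPKM in the ECM1-deficient library and 2.97 FPKM in the ECM1-sufficient library, 3.44-fold higher. It was the largest difference of the list, 1.497. Il2rg, the common gamma chain, was 2.29-fold higher, at 25.1 FPKM in the ECM1-deficient and 10.9 FPKM in the ECM1-sufficient library. Il6st, the shared chain gp130 of IL-6 type receptors, was at 6.94 FPKM in the ECM1-deficient and 1.99 FPKM in the ECM1-sufficient library, and Il10rb, a chain of the IL-10 receptor, was 2.65-fold higher. The IL-13 receptor chain Il13ra1, the alternative partner of Il4ra, was within 2-fold at 8.30 FPKM in the ECM1-deficient and 4.52 FPKM in the ECM1-sufficient library. On the median-gene scale 0 of the 15 were higher or lower, with a median of 0.39 and 14 above 0.

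Few ligands had values. Of 12 ligands 5 had values and 2 reached 1 FPKM, Csf1 and Osm. Csf1, the macrophage growth factor, was at 3.63 FPKM in the ECM1-deficient library and 1.09 FPKM in the ECM1-sufficient library, 3.34-fold higher. Osm, oncostatin M, was at 2.08 FPKM in the ECM1-deficient and 1.49 FPKM in the ECM1-sufficient library. Il6, below the minimum, was at 0.281 FPKM in the ECM1-deficient and 0.834 FPKM in the ECM1-sufficient library. Csf2, Il4, Il13, Il3 and Il5, which encode the ligands of the receptors above, were not analysed here.

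Inhibitors of the pathway had medians on either side of that of all genes. Of 8 SOCS genes 5 had values, of which 1 was higher and none lower, where 14.8% of all genes were higher and 2.17% lower. Their median difference was 0.49, beside 0.61 for all genes. Socs5 was at 3.44 FPKM in the ECM1-deficient library and 1.16 FPKM in the ECM1-sufficient library, and Socs3, a target and inhibitor of STAT3, at 4.40 FPKM in the ECM1-deficient and 2.64 FPKM in the ECM1-sufficient library. All of 12 other inhibitors, which are phosphatases, PIAS proteins, ubiquitin ligases and the adaptor gene Sh2b3, had values and 11 reached 1 FPKM. Of these, 0 were higher and 0 lower, beside the same shares of all genes. Their median was 0.75, and 0.03 on the median-gene scale. Ptpn6, which encodes the phosphatase SHP-1, was at 51.5 FPKM in the ECM1-deficient and 25.7 FPKM in the ECM1-sufficient library. Cblb, a ubiquitin ligase, was at 16.4 FPKM in the ECM1-deficient and 9.32 FPKM in the ECM1-sufficient library.

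Of 17 adaptors and kinases of the receptor tails 16 had values and 15 reached 1 FPKM. Of these, 1 was higher and 14 were within 2-fold, where 14.8% of all genes were higher. Their median was 0.71, beside 0.61 for all genes, and -0.0038 on the median-gene scale. Lyn, a Src family kinase bound to beta chains, was 2.72-fold higher, at 14.4 FPKM in the ECM1-deficient library and 5.29 FPKM in the ECM1-sufficient library. Grb2, the adaptor that links receptors to Ras, was at 33.4 FPKM in the ECM1-deficient and 40.0 FPKM in the ECM1-sufficient library, and it was the one gene of the list past 2-fold on the median-gene scale, at -1.018, for which it was picked after its values were seen.

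Target genes differed unevenly. Of 26 targets of IL-4 and STAT6 13 had values and 11 reached 1 FPKM, of which 5 were higher and 6 within 2-fold, where 14.8% of all genes were higher. Their median was 0.86, beside 0.61 for all genes, and 0.14 on the median-gene scale. Arg1 was at 158 FPKM in the ECM1-deficient library and 49.6 FPKM in the ECM1-sufficient library, 3.19-fold higher, or 0.88 on the median-gene scale. Egr2, a transcription factor of alternative activation, was at 11.99 FPKM in the ECM1-deficient and 3.34 FPKM in the ECM1-sufficient library, and Pparg, a lipid-activated nuclear receptor, at 9.91 FPKM in the ECM1-deficient and 3.99 FPKM in the ECM1-sufficient library. Retnla, the secreted protein RELM-alpha, was low, at 1.97 FPKM in the ECM1-deficient and 0.237 FPKM in the ECM1-sufficient library. Chil3, the lectin Ym1, was 2.29-fold higher, at 11.6 FPKM in the ECM1-deficient and 5.09 FPKM in the ECM1-sufficient library. In contrast Klf4, another STAT6 target, was at 3.47 FPKM in the ECM1-deficient and 2.24 FPKM in the ECM1-sufficient library and Tgm2 at 19.2 FPKM in the ECM1-deficient and 11.0 FPKM in the ECM1-sufficient library, both within 2-fold. None of the 11 was past 2-fold on the median-gene scale.

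Of 24 targets of STAT5 and GM-CSF 21 had values and 18 reached 1 FPKM, of which 5 were higher and 13 within 2-fold, where 14.8% of all genes were higher. Their median of 0.68 was close to the 0.61 of all genes and was -0.02 on the median-gene scale. Csf2rb, itself a gene of the axis, was one of the 13 within 2-fold. Spi1, which encodes the macrophage factor PU.1, was at 28.8 FPKM in the ECM1-deficient library and 6.73 FPKM in the ECM1-sufficient library, 4.28-fold higher. It was the one gene of this list past 2-fold on the median-gene scale, at 1.22. Itgax, the integrin CD11c, was 3.15-fold higher and Ccl9, a chemokine, 2.75-fold higher. Pim1, a kinase induced by STAT5, was at 28.8 FPKM in the ECM1-deficient and 14.4 FPKM in the ECM1-sufficient library, and Bcl2l1, the survival factor BCL-XL, at 7.60 FPKM in the ECM1-deficient and 4.46 FPKM in the ECM1-sufficient library. Id2 was at 22.8 FPKM in the ECM1-deficient and 26.5 FPKM in the ECM1-sufficient library, a difference of -0.21.

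Of 14 targets of IL-10 and STAT3 13 had values, of which 3 were higher and 10 within 2-fold, where 14.8% of all genes were higher. Their median was 0.74, beside 0.61 for all genes, and 0.06 on the median-gene scale. Fcgr1, the high-affinity immunoglobulin receptor, was at 17.4 FPKM in the ECM1-deficient library and 3.69 FPKM in the ECM1-sufficient library. Tnfrsf1b, the second TNF receptor, was 2.64-fold higher. The third was Il4ra itself. On the median-gene scale 1 of the 13 was higher, Fcgr1.

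**Figure D4:**
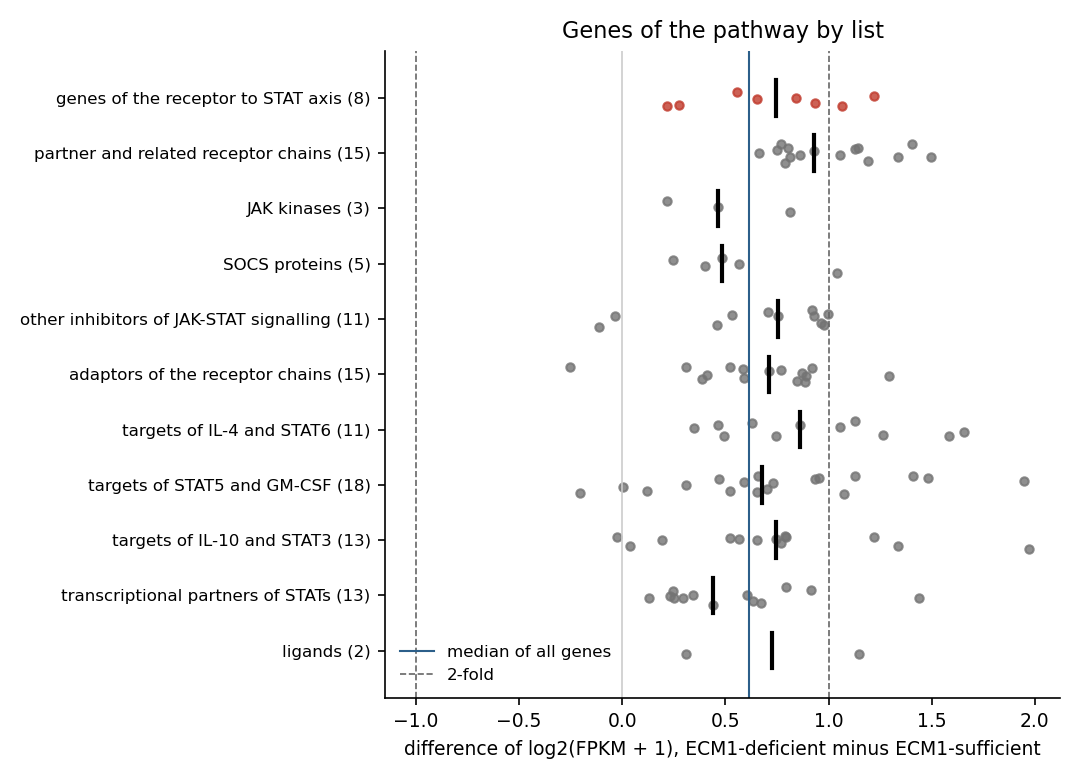
Difference of log2(FPKM + 1), ECM1-deficient minus ECM1-sufficient, of each gene at 1 FPKM or more, by list, with the number of genes in brackets; a gene may stand in several lists. Black bars are list medians, the blue line the median of all genes at 0.61 and dashed lines 2-fold. Partner and related receptor chains lie between 0.66 and 1.497, and the 8 genes of the axis, in red, between 0.22 and 1.22.

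Markers of other cells were examined because B cells, mast cells and eosinophils also use these receptors. Their levels stand beside the median ratio of 1.73 over genes that both libraries held at 1 FPKM or above. Of 6 B cell markers 3 had values, with a summed level of 9.52 FPKM in the ECM1-deficient library and 3.67 FPKM in the ECM1-sufficient library, and Cd79a was at 2.43 FPKM in the ECM1-deficient and 0.378 FPKM in the ECM1-sufficient library. Cd22 was at 5.605 FPKM in the ECM1-deficient and 2.17 FPKM in the ECM1-sufficient library. Cd79b was at 1.49 FPKM in the ECM1-deficient and 1.13 FPKM in the ECM1-sufficient library, or -0.22 on the median-gene scale. The median difference of the 3 was 1.06, beside 0.61 for all genes, and 0.45 on the median-gene scale. Of 10 eosinophil and mast cell markers 3 had values, which summed to 3.09 FPKM in the ECM1-deficient and 1.47 FPKM in the ECM1-sufficient library. Tpsb2 was at 1.31 FPKM in the ECM1-deficient library and listed at 0 in the ECM1-sufficient library. Cpa3, below the minimum, was at 0.716 FPKM in the ECM1-deficient and 0.0887 FPKM in the ECM1-sufficient library. Siglecf went the other way, at 1.07 FPKM in the ECM1-deficient and 1.38 FPKM in the ECM1-sufficient library. Of 8 neutrophil markers 3 had values, at 8.52 FPKM in the ECM1-deficient and 6.40 FPKM in the ECM1-sufficient library in sum. They differed in direction, with Csf3r at 4.03 FPKM in the ECM1-deficient and 1.42 FPKM in the ECM1-sufficient library and S100a8 at 3.69 FPKM in the ECM1-deficient and 4.98 FPKM in the ECM1-sufficient library. Retnlg was at 0.806 FPKM in the ECM1-deficient library, and in the ECM1-sufficient library it was listed at 0. Of 8 mesothelial and fibroblast markers 6 had values and summed to 55.1 FPKM in the ECM1-deficient library and 29.96 FPKM in the ECM1-sufficient library. Their median difference was 0.65, beside 0.61 for all genes, with 5 of the 6 above 0. On the median-gene scale it was 0.15, with 3 of the 6 above 0. Pdgfra was at 7.62 FPKM in the ECM1-deficient and 1.57 FPKM in the ECM1-sufficient library, and Dcn at 28.1 FPKM in the ECM1-deficient and 12.8 FPKM in the ECM1-sufficient library. In contrast Col1a1 was nearly level, at 11.9 FPKM in the ECM1-deficient and 11.0 FPKM in the ECM1-sufficient library. Wt1 was lower, at 0.867 FPKM in the ECM1-deficient and 1.06 FPKM in the ECM1-sufficient library. The 9 markers of T and NK cells and the 6 of dendritic cells were not analysed here. The part of these cells in the differences of Il4ra, Csf2ra, Csf2rb and Il3ra was not tested.

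Promoters were searched for motifs of STAT factors and of PU.1, the product of Spi1. The RefSeq table on GRCm38.p6 held 11 promoters of 9 of the 10 genes, each 250 bases before and 50 after the start. A promoter of Csf2rb was not among them and was not searched. Motifs were searched on both strands. The STAT motif TTCNNNGAA occurred in 8.30% of all 32851 promoters, and among the genes of the axis in those of Cish and Csf2rb2. The spaced form preferred by STAT6, TTCNNNNGAA, occurred in 6.95% of all promoters and in 0 of the 11. The PU.1 motif GAGGAAGT was held by 3.20% of all promoters and by that of Csf2rb2. The shorter core of ETS factors, the family of PU.1, AGGAAG, which lies inside that motif, was held by 35.4% of all promoters and by 10 of the 11, all but that of Cish. Those 10 belonged to 8 genes, among them Jak2 and Stat6, which had the smallest FPKM ratios of the axis. The share of all promoters covers 27025 genes, whether or not they had values here. An excess over that share was not tested. A match describes letters only and marks no bound site.

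The promoters of the 2 genes past 2-fold, of Csf2rb2 and of Cish are shown with every match in capitals. They lie at chr7:125552021-125552320 on the plus strand, chr19:61228369-61228668 and chr15:78305672-78305971 on the minus strand and chr9:107296409-107296708 on the plus strand. Each is written from 5′ to 3′ along the gene.
Il4ra: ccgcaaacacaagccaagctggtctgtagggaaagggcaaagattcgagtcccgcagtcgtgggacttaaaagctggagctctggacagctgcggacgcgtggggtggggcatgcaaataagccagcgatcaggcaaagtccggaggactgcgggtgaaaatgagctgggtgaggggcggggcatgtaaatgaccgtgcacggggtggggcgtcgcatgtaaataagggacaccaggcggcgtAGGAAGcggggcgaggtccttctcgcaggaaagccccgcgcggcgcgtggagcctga
Csf2ra: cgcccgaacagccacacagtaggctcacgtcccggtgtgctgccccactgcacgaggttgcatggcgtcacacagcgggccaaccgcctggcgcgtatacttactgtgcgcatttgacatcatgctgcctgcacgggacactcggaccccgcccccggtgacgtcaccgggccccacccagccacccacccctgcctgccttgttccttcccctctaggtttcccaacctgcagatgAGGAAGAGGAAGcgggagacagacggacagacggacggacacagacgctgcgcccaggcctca
Csf2rb2: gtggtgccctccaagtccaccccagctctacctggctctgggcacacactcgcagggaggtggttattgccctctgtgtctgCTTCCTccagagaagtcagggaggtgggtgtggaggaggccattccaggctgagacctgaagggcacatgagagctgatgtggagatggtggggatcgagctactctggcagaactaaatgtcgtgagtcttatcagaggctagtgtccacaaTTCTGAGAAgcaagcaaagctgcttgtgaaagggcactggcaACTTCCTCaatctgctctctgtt
Cish: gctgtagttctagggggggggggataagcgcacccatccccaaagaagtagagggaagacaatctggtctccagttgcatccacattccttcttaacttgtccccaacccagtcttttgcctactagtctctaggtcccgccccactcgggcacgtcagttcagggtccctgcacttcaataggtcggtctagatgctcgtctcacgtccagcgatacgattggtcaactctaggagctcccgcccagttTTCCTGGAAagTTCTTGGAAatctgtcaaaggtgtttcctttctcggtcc
In Il4ra and Csf2ra the capitals are ETS cores just before the start, and in Csf2ra they are a direct repeat. In Csf2rb2 they are an ETS core, the STAT motif and the PU.1 motif, in that order. In Cish they are a pair of STAT motifs at the start.

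The authors' deposited gene ontology table placed part of the axis among cytokine genes. Its genes with values were all at least 1.5-fold higher in FPKM + 1 in the ECM1-deficient library. By that threshold 5 of the 9 genes of the axis were higher, Il4ra, Csf2ra, Csf2rb, Stat5b and Stat3, beside 47.5% of all 10402 genes. Csf2rb2, at 0.56, lay just under the limit of 0.58. For response to cytokine the authors' deposited table gave 152 genes, 1.454-fold more than its background, with a false discovery rate of 2.49e-07, and Csf2ra, Csf2rb, Stat3 and Stat5b were among them. For response to interleukin-4 the authors' deposited table gave 14 of 27 genes, 2.45-fold enriched, with a false discovery rate of 0.00135. Of the axis that term held 1 gene, Stat5b, beside 3 ribosomal protein genes. For the cytokine-mediated signaling pathway, which held Csf2rb, Stat3 and Stat5b, the authors' deposited table gave 72 of 272 genes, 1.25-fold enriched, with a false discovery rate of 0.0285. These are values across genes of 1 pair of libraries, against a background of 23313 genes that is larger than the expression table.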

How the data were processed

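RNA of 1 ECM1-deficient and 1 ECM1-sufficient sample of elicited mouse peritoneal macrophages was sequenced as poly(A)-selected, strand-specific libraries, per the labels' protocol. The submitters' processing notes name HISAT2, StringTie 1.2.3 and mm9, without saying which step each served. The deposited FPKM values were computed per gene by the authors, and the deposited log2 columns held log2(FPKM + 1). The authors' fold ratio was ECM1-sufficient over ECM1-deficient, and every p-value and q-value they deposited was 1. Their deposited gene ontology table gave, per the file headers, the fold of each term, its p-value with the false discovery rate, and numbers of genes. The table held 10403 genes, each with at least 0.500 FPKM in its higher library. Of these, 10384 overlapped the gene of the same identifier in GENCODE M21 (GRCm38) and 8060 had the same start and end, so positions are given on GRCm38.

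Rows of a symbol were summed, and the difference of log2(FPKM + 1), ECM1-deficient minus ECM1-sufficient, was computed. Counts cover the 9032 genes that reached 1 FPKM in either library, and a difference of 1 in size was the threshold. The scale understates differences of low genes, so list medians set beside that of all genes also depend on level. Folds of single genes are plain FPKM ratios. For the median-gene scale FPKM were divided or multiplied by the square root of the median ratio of 7329 genes. Genes and lists were chosen with earlier results of these data known. Named were all genes of the axis, and from each list those past 2-fold (at most 4), or the 2 most abundant where none was. From lists of pathway genes, targets and markers others were named too. Depth is unknown: in the 100 lowest values of each library, FPKM times length was within 0.05 of whole reads for at most 21.0%. No counting interval is given. Some genes of the lists are not reported here and were left out of the list counts. Calculations were tested on simulated data. Coding sequences were aligned with Biopython 1.88.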

Additional observations from a re-analysis of the deposited data

How the results depend on the processing

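No paired analysis was possible because each genotype had 1 library, and no library could be left out. In the main setting 2 genes of the axis and 1337 of all genes were higher, 0 and 196 were lower, and the median of the axis was 0.75. No setting tried made a gene of the axis lower by the threshold. Higher genes of the axis numbered 0 with a pseudocount of 5, with the median ratio divided out, with FPKM rescaled to equal sums and at 4-fold. Of all 9032 genes, 286, 221, 381 and 109 were higher in these settings, in that order. At 1.5-fold 5 of the 8 genes of the axis were higher, beside 4849 of the 9032. With a pseudocount of 0.1 there were 3 of the 8, beside 2944 of the 9032. A pseudocount of 0.1 gave a median of 0.88, one of 5 gave 0.46, no FPKM minimum 0.66, a minimum of 5 FPKM 0.84, the median ratio 0.10 and equal sums 0.39. Summing each pair of paralogs, which was added after the data were seen, gave 0.79.

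Among all genes, 2944 were higher with a pseudocount of 0.1. With a pseudocount of 5, 286 were higher and 89 lower. At a minimum of 5 FPKM 122 were lower. With the median ratio divided out 221 were higher and 431 lower, and with equal sums 381 and 296. At 1.5-fold 4849 were higher and 332 lower, and at 4-fold 109 and 72. The highest row per symbol changed none of the 28 results.

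Division by the median ratio turned the sign of Csf2rb2 to -0.19, of Jak2 to -0.42 and of Stat6 to -0.48. It did the same to the medians of the JAK kinases (-0.12), the SOCS proteins (-0.11), the adaptors (-0.0038), the STAT5 targets (-0.022), the transcriptional partners of STATs (-0.099) and the neutrophil markers (-0.24). Equal sums turned Jak2 to -0.15 and Stat6 to -0.16. Which scaling is right was not tested, and with 1 library per genotype and unknown depth the size of chance differences is unknown.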

Other observations

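Of 15 genes of transcriptional partners of STAT factors 13 had values, of which 1 was higher and 12 within 2-fold, where 14.8% of all genes were higher. Their median difference was 0.44, beside 0.61 for all genes. The higher one was Irf8, a factor of macrophage development, at 11.3 FPKM in the ECM1-deficient library and 3.55 FPKM in the ECM1-sufficient library. Cebpb, which works with STAT6 at the Arg1 gene and was picked after its values were seen, was at 72.9 FPKM in the ECM1-deficient and 45.3 FPKM in the ECM1-sufficient library.

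The nearest genes with values beside genes of the axis were picked by position after the values were seen. Next to Il4ra, Nsmce1 was at 8.53 FPKM in the ECM1-deficient library and 8.02 FPKM in the ECM1-sufficient library, and Gtf3c1 at 2.35 FPKM in the ECM1-deficient and 1.12 FPKM in the ECM1-sufficient library. Beside Csf2rb, Tst, a sulfur transferase of mitochondria, was 3.37-fold higher, at 19.6 FPKM in the ECM1-deficient and 5.81 FPKM in the ECM1-sufficient library. On the other side of the beta chain pair, Ncf4, a subunit of the phagocyte oxidase, was at 32.9 FPKM in the ECM1-deficient and 20.3 FPKM in the ECM1-sufficient library. Beside Jak2, Rcl1 was at 3.33 FPKM in the ECM1-deficient and 2.95 FPKM in the ECM1-sufficient library. On its other side Insl6 was at 5.198 FPKM in the ECM1-deficient and 9.25 FPKM in the ECM1-sufficient library. Around the Stat5b, Stat5a and Stat3 block, Ghdc was at 2.70 FPKM in the ECM1-deficient and 1.25 FPKM in the ECM1-sufficient library and Ptrf at 14.0 FPKM in the ECM1-deficient and 7.17 FPKM in the ECM1-sufficient library. Beside Csf2ra, Grk5 was at 4.53 FPKM in the ECM1-deficient and 2.78 FPKM in the ECM1-sufficient library. Beside Stat6, Lrp1 was at 20.7 FPKM in the ECM1-deficient and 18.8 FPKM in the ECM1-sufficient library. Nab2, whose end overlaps that of Stat6, was 2.10-fold higher, at 17.3 FPKM in the ECM1-deficient and 8.22 FPKM in the ECM1-sufficient library.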
